A study of Rattus norvegicus with 4 samples.

Results

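The genes described here build and run cilia, the microtubule-based projections that nearly every epithelial cell of the nephron carries in a single, non-motile form and that multiciliated cells of airway, oviduct and brain ventricle carry in a beating form. They were taken by name from the deposited gene table: symbols of the Ift, Bbs, Tekt, Dnah, Dnai and Rsph families together with Armc3, Armc4, Pkd1, Pkd2, Pkhd1, Foxj1 and Rfx3. Of 35374 loci in the table, 20240 of them with a symbol, 49 were members. Foxj1 had no row by that symbol and is not analysed here.

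Intraflagellar transport (IFT) moves cargo along the ciliary axoneme on trains of IFT-B proteins, which travel to the tip with kinesin, and IFT-A proteins, which are needed for the return with cytoplasmic dynein. The BBSome, a complex of Bardet-Biedl syndrome (BBS) proteins, rides on these trains and carries membrane proteins. Axonemal dyneins, radial spokes and tektins are parts of the beating axoneme. In kidney tubules the primary cilium holds the polycystins, and loss of polycystins, fibrocystin or some IFT proteins gives cystic kidneys.

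Total RNA of the kidney inner medulla came from female and male Sprague Dawley rats, an outbred strain, on a chow of 0.49% NaCl for 2 weeks, started at 14 to 16 weeks of age, with no other treatment in either sex. Each sex had 2 libraries, each a pool of 4 rats, so that 8 rats stood behind each sex and no value belongs to a single animal. Libraries held 34552171 to 41945343 read pairs. The table gives 1 value per sex with both pools joined, in FPKM (fragments per kilobase of transcript, scaled to the depth of sequencing), so no SD, n or overlap of groups can be given, and the error measure is the p or the adjusted q of the authors' deposited table. Depth behind a single FPKM value is unknown. Loci with q below 0.05 are named as called. Markers of the inner medullary collecting duct were present in both sexes, with Aqp3, a water channel of principal cells, at 1332 and 1553 FPKM in females and males and the urea transporter Slc14a2 at 229 and 297 FPKM. Thick limb markers were also present, with Umod at 830 and 904 FPKM.

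Of the 49 ciliary genes, 34 had enough reads for the authors' test and 15 did not. Armc3 was the 1 member called, higher in females, which is 2.94% of the tested members against 2.34% of all 20307 tested loci (female-higher 1.63%, male-higher 0.719%). At an unadjusted p under 0.05 there were 3 members, Armc3, Rsph10b and Dnah2, or 8.82% of those tested against 9.77% of all tested loci (female-higher 6.08%, male-higher 3.68%). At q under 0.01 the count was again 1, against 1.55% of all tested loci, at q under 0.1 it was 2, against 3.40%, and with q adjusted anew over loci of a mean of at least 1 FPKM it was 1, against 2.47%. Both shares lie near the background, so the number of calls sets nothing apart in these genes. Over the 34 tested members the log2 ratio, female over male, had a median of 0.0039, beside -0.0048 over the 20037 tested loci above 0 in both sexes. No interval can be set on a ratio without values per pool.

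The levels split by role. All 21 IFT and BBS genes were tested, with means of both sexes from 1.23 to 77.3 FPKM and a median of 8.95 FPKM. Armc3 and Armc4 are counted among the 24 axonemal genes here, and a place of Armc3 in the axoneme was not tested. Of these 24 genes, 9 were tested, and the median level over all 24 was 0.132 FPKM. The 15 members that were not tested all belonged to the axonemal genes, and none of their values was above 0.239 FPKM in either sex. Of these 15, 4 were listed at 0 in both sexes and another 4 in 1 sex.

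**Figure D1:**
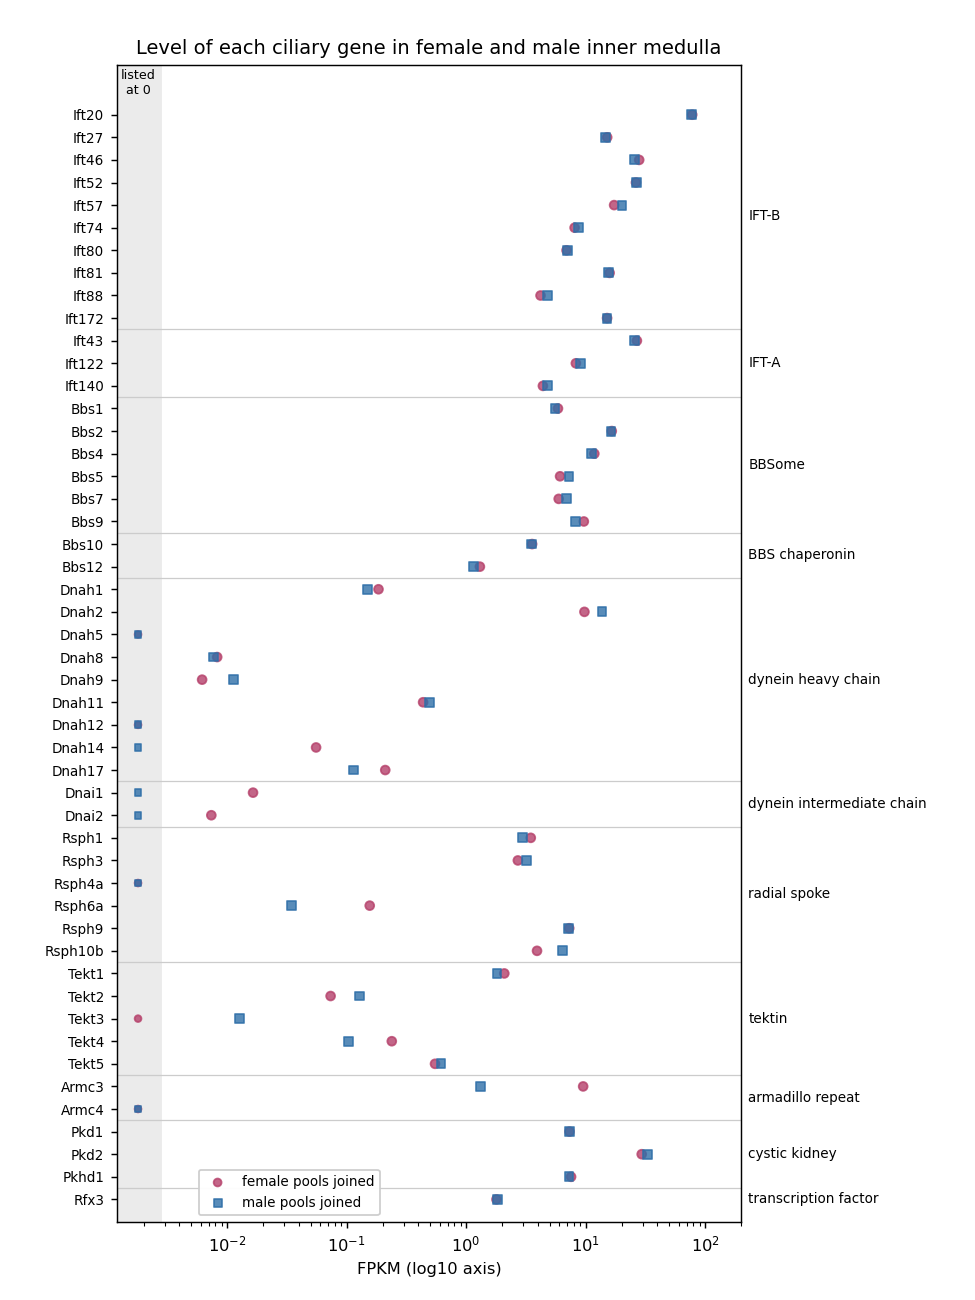
FPKM of the 49 ciliary genes on a log10 axis, with circles for the joined female pools, squares for the joined male pools and a grey band for values listed at 0. IFT and BBS genes lie between 1.15 and 78.1 FPKM in both sexes, while most dynein heavy chains, both dynein intermediate chains and most tektins lie under 1 FPKM. Among the tested members, Armc3 has the widest gap between the sexes. Members listed at 0 in 1 sex have no ratio, and the distance of their points on the axis has no meaning.

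Among the IFT-B genes, Ift20, whose protein also sits at the Golgi and sorts membrane cargo, was at 78.1 FPKM (female) and 76.6 FPKM (male). It had the highest mean of all members. Ift46, which in the alga Chlamydomonas is needed to bring in outer dynein arms, was at 28.1 and 25.6 FPKM. Ift52, a core subunit, was at 26.4 and 26.8 FPKM. These were the IFT-B genes of highest level, and in each the sexes were within 1.10-fold. Ift57 was at 17.3 FPKM (female) and 20.2 FPKM (male), 1.16-fold apart, the widest gap among the 10 IFT-B genes (q = 0.882 in the authors' deposited table). Ift81 and Ift74, which bind tubulin together, were at 15.9 against 15.6 FPKM and at 8.10 against 8.72 FPKM. Each of these was within 1.08-fold between the sexes. Ift172, the largest of the IFT-B proteins, was at 15.2 FPKM (female) and 15.1 FPKM (male). Ift27, a small GTPase, was at 15.2 and 14.7 FPKM, and Ift80 at 6.94 and 7.01 FPKM. Ift88, whose loss in the mouse gives polycystic kidneys, had the lowest level of the IFT-B genes, at 4.20 FPKM (female) and 4.82 FPKM (male) (q = 0.976 in the authors' deposited table).

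The 3 IFT-A genes had means from 4.62 to 26.3 FPKM. Ift43, a small subunit, was at 26.9 FPKM (female) and 25.7 FPKM (male). The larger subunits were lower, Ift122 at 8.30 and 9.10 FPKM and Ift140 at 4.40 and 4.84 FPKM. None was called, and the widest gap was 1.10-fold.

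Among the 6 BBSome genes, Bbs2 was highest at 16.6 FPKM (female) and 16.4 FPKM (male), followed by Bbs4 at 11.8 and 11.2 FPKM and Bbs9 at 9.68 and 8.23 FPKM. Bbs5, Bbs7 and Bbs1 had means between 5.72 and 6.70 FPKM. Bbs5, whose protein binds phosphoinositides, was at 6.12 FPKM (female) and 7.28 FPKM (male), 1.19-fold apart, the widest gap among all 21 IFT and BBS genes (q = 0.941 in the authors' deposited table). Bbs10 and Bbs12, chaperonin-like proteins that help the BBSome to assemble, were lower, Bbs10 at 3.57 and 3.50 FPKM and Bbs12 at 1.31 and 1.15 FPKM.

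The 21 IFT and BBS genes stayed close to even between the sexes. Their median absolute log2 ratio was 0.08, and 21 of 21 lay within 1.25-fold. Over the 14547 tested loci with a mean in the same range of FPKM, the median absolute log2 ratio was 0.16 and 72.7% lay within 1.25-fold. These loci were matched by the range alone and not by level within it, and loci without a symbol were not left out. The lowest unadjusted p among the 21 was 0.212, for Ift57, in the authors' deposited table. That none passed does not show that the sexes were equal.

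**Figure D2:**
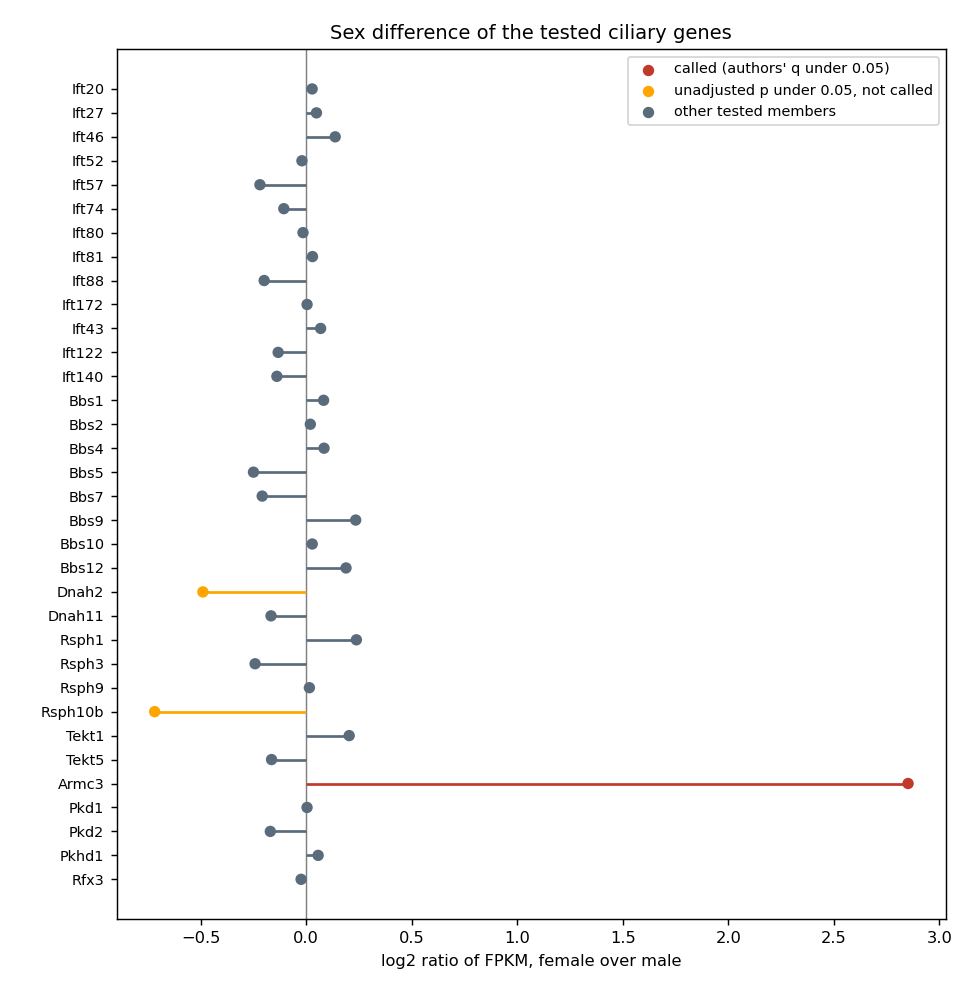
Log2 ratio of FPKM, female over male, for the 34 tested ciliary genes, ordered by role and coloured by the authors' test. Armc3 stands at 2.85, Rsph10b at -0.72 and Dnah2 at -0.49, and the other 31 members lie between -0.25 and 0.24.

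Armc3, which encodes an armadillo repeat protein (locus on chromosome 17, 87632222 to 87726066, build rn5), was at 9.55 FPKM (female) and 1.32 FPKM (male). The female value was 7.22-fold the male one, a log2 ratio of 2.85, with p = 5e-05 and q = 0.00391 in the authors' deposited table. That p is the smallest there, but other loci share it, among them Kap, Cubn, Slc22a7, Slc34a1, Plvap and Sptssb. It therefore does not rank Armc3 above them. A gap of 7.22-fold or wider was found in 0.933% of the tested loci above 0 in each sex. By fold, Armc3 ranked number 12 of the 237 called loci with a symbol, a value above 0 in both sexes, a mean of at least 1 FPKM and a higher value in females. With a pseudocount of 1 its log2 ratio was 2.18. The genes on either side in the table did not share the difference: Pip4k2a was at 11.4 FPKM (female) and 13.5 FPKM (male), and Msrb2 at 19.5 and 20.8 FPKM, neither of them called. An unnamed locus listed with the same interval as Armc3 was at 0 in both sexes. The other armadillo gene of the set, Armc4, which docks outer dynein arms to the axoneme, was listed at 0 FPKM in both sexes and was not tested.

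Markers of several other cell types were also higher in females. Of 5 proximal tubule markers with a row, 4 were tested and all 4 were called higher in females, with a summed level over the 5 of 938 FPKM (female) and 141 FPKM (male). Kap alone gave 910 and 131 FPKM of these sums. The untested marker, Slc5a2, was at 0.188 and 0.250 FPKM. Of 5 urothelial markers 3 were called higher in females (Upk1b, Upk2 and Krt5, the last on a locus joined with Krt73), with sums of 38.3 and 19.3 FPKM. The endothelial marker Plvap, at 240 and 122 FPKM, and the T cell marker Cd3e, at 2.15 and 0.651 FPKM, were each the 1 called of 4 markers in their lists. Sptssb was the 1 called of 5 thin limb markers, at 25.1 and 14.6 FPKM, but 3 of the 5 had lower values in females. Slc14a2 stands both in the thin limb list and in that of principal cells. Summed levels were 319 and 184 FPKM for the endothelial list, 312 and 232 for leukocytes and 1371 and 1415 for the thin limb. None of the tested markers of collecting duct principal cells (6), intercalated cells (4), thick limb and distal tubule (5), multiciliated cells (5) or smooth muscle (1) was called. All 6 principal cell markers had lower values in females, and the row named Aqp2, the largest of them, lies on another chromosome than its RefSeq gene. Summed levels of these lists in females and males were 14695 and 20244 FPKM, 522 and 466 FPKM, 1074 and 1115 FPKM, 13.8 and 16.3 FPKM, and 2.22 and 1.65 FPKM, in that order. The part of any of these cell types in the Armc3 difference was not tested. In tissue RNA, more cells of a type and more RNA per cell cannot be told apart. Apart from Aqp2, the chromosomes of marker and companion rows are not compared with those of their RefSeq genes here.

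Of 10 multiciliated cell markers with a row, 5 were not tested and lay at or near 0, and 5 were tested, with none called. Mcidas, which starts the multiciliated programme, and Pifo were listed at 0 FPKM in both sexes, and Gmnc, which acts beside Mcidas, was at 0.0178 FPKM (female) and listed at 0 (male). Deup1, which builds the many centrioles of these cells, was at 0.0594 and 0.0639 FPKM, and Sntn, a protein of the ciliary tip, at 0.107 and 0.104 FPKM. The tested ones were higher: Ccno, a cyclin-like protein of centriole amplification, was at 1.91 and 2.67 FPKM, Tppp3 at 2.74 and 3.06 FPKM, Dynlrb2 at 1.83 and 1.08 FPKM and Ccdc78 at 0.470 and 0.171 FPKM. Capsl was the highest of the list at 6.67 FPKM (female) and 9.14 FPKM (male), and was not called (q = 0.691 in the authors' deposited table).

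Dynein heavy chains are the motors of the axonemal arms, and 1 of the 9 in the table stood above the rest. Dnah2, an inner arm heavy chain (chromosome 10, 55768419 to 55899597), was at 9.79 FPKM (female) and 13.7 FPKM (male), a log2 ratio of -0.49 and 1.40-fold apart, with p = 0.0251 and q = 0.360 in the authors' deposited table. It was therefore not called. An unnamed locus with the same interval was at 4.98 and 4.74 FPKM, and the neighbours Kdm6b and Efnb3 had rows of their own at 8.46 against 9.66 FPKM and 1.07 against 0.952 FPKM. The other 8 heavy chains had means of at most 0.464 FPKM. Dnah11, an outer arm chain, was the 1 of them that was tested, at 0.437 and 0.491 FPKM. Dnah1, of the inner arms, was at 0.185 FPKM (female) and 0.149 FPKM (male), and Dnah17, of the outer arms, at 0.211 and 0.115 FPKM. Dnah8 and Dnah9, both outer arm chains, were under 0.0114 FPKM in both sexes. Dnah14 was at 0.0556 FPKM (female) and listed at 0 (male). Dnah5, the outer arm chain of airway cilia, and Dnah12 were listed at 0 in both sexes. The interval given for Dnah12 lies on another chromosome than its RefSeq gene, unlike those of the other 48 members. The intermediate chains Dnai1 and Dnai2, which hold the outer arm together, were at 0.0165 and 0.00739 FPKM (female) and listed at 0 (male).

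Radial spokes reach from the outer doublets to the central pair. Of 6 such genes, 4 were tested, with means from 2.96 to 7.26 FPKM. Rsph10b (chromosome 12, 14708524 to 14756095) was at 3.93 FPKM (female) and 6.46 FPKM (male), a log2 ratio of -0.72 and 1.64-fold apart, with p = 0.00235 and q = 0.0789 in the authors' deposited table. It was the member nearest to a call after Armc3, in the opposite direction. An unnamed locus with the same interval was at 1.23 FPKM (female) and 1.94 FPKM (male) and was not called. Rsph9, of the spoke head, was at 7.30 and 7.23 FPKM. Rsph1, also of the spoke head, was at 3.48 and 2.95 FPKM, and Rsph3, of the stalk, at 2.71 and 3.21 FPKM. Rsph4a, another spoke head gene, was listed at 0 in both sexes on both of its rows. Rsph6a, a sperm counterpart of it, was at 0.156 and 0.0346 FPKM without a test. Levels of Rsph4a, Rsph1 and Rsph9 thus ran from a listed 0 to above 7 FPKM within each sex.

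Tektins are filament proteins inside the doublet microtubules. Tekt1 was at 2.09 FPKM (female) and 1.82 FPKM (male), and Tekt5 at 0.550 and 0.616 FPKM, and neither was called. Tekt2, Tekt3 and Tekt4 were not tested, with values of at most 0.239 FPKM.

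The 9 tested axonemal genes, with Armc3 counted among them, had a median absolute log2 ratio of 0.24, and 6 of 9 lay within 1.25-fold. Tested loci with means in the same range of FPKM, 12104 in number and matched by range alone, had a median of 0.27, and 55.3% lay within 1.25-fold. The 3 members outside that limit, Armc3, Rsph10b and Dnah2, had means of 5.44, 5.19 and 11.8 FPKM, while those of lowest mean, Dnah11 and Tekt5, were 1.12-fold apart. Of the 34 tested members, 14 share their listed interval with another locus, and reads of overlapping or antisense transcripts cannot be told apart from theirs where strand was not used.

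**Figure D3:**
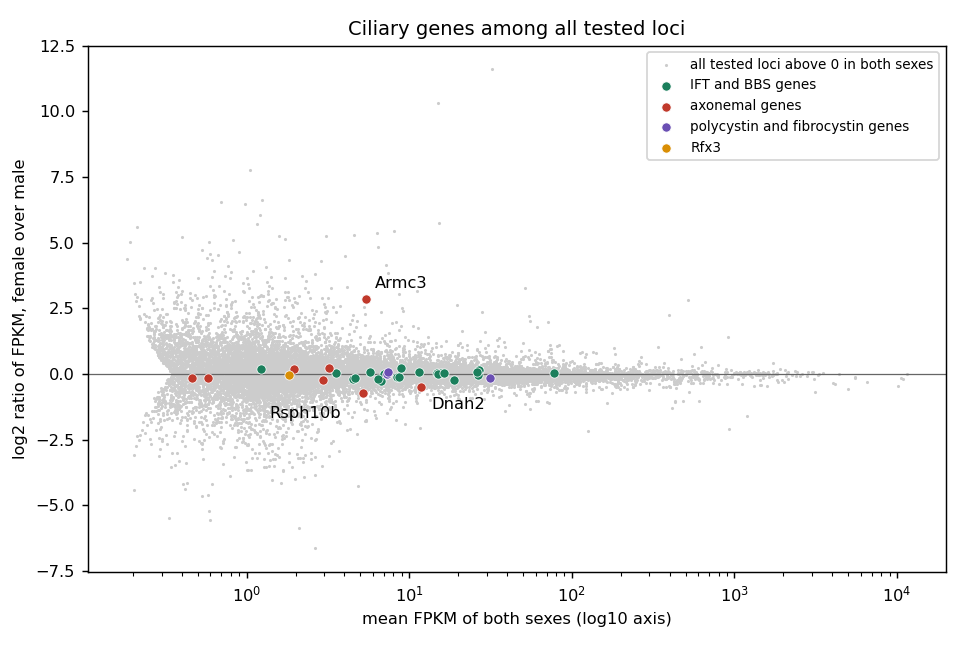
Log2 ratio of FPKM, female over male, against the mean FPKM of both sexes on a log10 axis, for tested loci above 0 in both sexes (grey) and the tested ciliary genes (coloured by role). Armc3, at a mean of 5.44 FPKM and a ratio of 2.85, stands outside the main cloud, Rsph10b and Dnah2 lie below 0, and the other coloured points lie close to 0.

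The genes of cystic kidney disease were at like levels in both sexes. Pkd2, the polycystin-2 channel, was at 29.5 FPKM (female) and 33.2 FPKM (male) and had the second highest mean of all members. Its partner Pkd1, the large receptor-like polycystin-1, was at 7.34 and 7.32 FPKM, and Pkhd1, which encodes fibrocystin, at 7.57 and 7.28 FPKM. For these genes q was 0.947, 0.999 and 0.999 in the authors' deposited table, and the widest gap was 1.13-fold, for Pkd2. Per length of transcript, the Pkd2 row was thus above the Pkd1 row in both sexes. Pkd1 shares its listed interval with 2 other loci, and Pkd2 shares its own with none. Tsc2, listed with the same interval as Pkd1, was at 14.7 FPKM (female) and 15.0 FPKM (male).

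Rfx3, a transcription factor of the RFX family that drives many ciliary genes through a promoter element named the X-box, was at 1.80 FPKM (female) and 1.83 FPKM (male) (q = 0.999 in the authors' deposited table). Promoters of the members were searched for that element, since the levels of ciliary genes are the subject here. Which members are targets of Rfx3 was not tested. RefSeq promoter windows of build GRCr8, from 250 bases before to 50 bases after a start site, were found for 40 of the 49 members, 48 windows in all. The full X-box, which is the arm GTTNCC, any 2 bases and the arm GGNAAC, on either strand, was in 0 of the 48 windows and in 0.474% of all 33365 windows. Allowing up to 2 mismatches at its fixed letters, 41.7% of the member windows and 14.9% of all windows held a match. One arm of it, GTTGCC on either strand, which can lie inside such a match, was in 33.3% and 12.2%, and the forkhead motif GTAAACA on either strand in 4.17% and 3.78%. Some genes have several windows, and these shares carry no test. A match is a description of the letters and not a bound site.

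A match with 1 mismatch, the nearest to the full element, was found in 6 members, and 5 of these matches are printed, so the choice is not the whole set. Capitals mark the fixed letters that match, read 5′ to 3′ on the strand of the gene.
Ift172: GTTgtCcaGGtAAC
Ift140: GTcgCCcaGGgAAC
Bbs7: GTTggCctGGaAAC
Dnah12: GTTtCCatGGtgAC
Tekt4: GTTcCtgaGGcAAC
The first 3 belong to genes with means from 4.62 to 15.1 FPKM, and Tekt4 was at 0.239 FPKM (female) and 0.104 FPKM (male). The level of Dnah12 is not set beside its match, since its row lies on another chromosome than this promoter. Among tested members 13 of 27 with a window held a near match, and among the IFT and BBS genes 8 of 17. Armc3 has no entry in the promoter table.

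The window printed next shows the setting of the element in a transport gene that was even between the sexes. Capitals mark the near match, and the window runs 5′ to 3′ on the strand of the gene. It is chr6:30801694-30801993 on the plus strand in build GRCr8, with the match starting 18 bases after the start site.
Ift172 promoter: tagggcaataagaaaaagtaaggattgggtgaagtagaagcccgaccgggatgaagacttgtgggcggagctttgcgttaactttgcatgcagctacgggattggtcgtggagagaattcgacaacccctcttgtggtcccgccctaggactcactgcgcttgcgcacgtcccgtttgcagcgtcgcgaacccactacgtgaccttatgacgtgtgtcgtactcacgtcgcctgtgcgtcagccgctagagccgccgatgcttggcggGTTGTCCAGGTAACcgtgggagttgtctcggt

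Other genes of the cilium were taken from 7 companion lists, 147 genes with a row beyond the members, of which 112 were tested. None was called by the authors' test, against 2.34% of all tested loci. At an unadjusted p under 0.05 there were 3, Lrp5, Zmynd10 and Cys1, each higher in males. That is 2.68% of the 112, against 9.77% of all tested loci (female-higher 6.08%, male-higher 3.68%). The median log2 ratio over the 112 was -0.04, beside -0.0048 over all tested loci. Lrp5, a Wnt co-receptor linked to polycystic liver disease in humans, was at 42.6 FPKM (female) and 59.0 FPKM (male), with p = 0.0039 and q = 0.109 in the authors' deposited table. Zmynd10, which helps to assemble dynein arms in the cytoplasm, was at 4.50 and 7.34 FPKM, with p = 0.00535 and q = 0.135 in the authors' deposited table. Cys1, which encodes cystin, a cilium-associated protein lost in the cpk mouse, was at 36.0 and 46.5 FPKM, with p = 0.0379 and q = 0.442 in the authors' deposited table.

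In the list of ciliary motors, 0 of 15 tested genes were called. Its highest levels were those of light chains shared with cytoplasmic dynein, Dynll1 at 384 FPKM (female) and 460 FPKM (male), Dynlrb1 at 302 and 311, and Dynll2 at 98.6 and 108. In the list of further IFT and BBS proteins, 0 of 18 were called, with Mkks, a chaperonin-like BBS protein, at 48.3 and 47.6 FPKM, Cluap1 at 29.2 and 28.3 FPKM and Arl6, the GTPase that recruits the BBSome to membranes, at 20.4 and 21.4 FPKM. For the transition zone and nephronophthisis genes, which form the gate at the base of the cilium, 0 of 26 were called. Glis2, a transcription factor, was at 31.1 and 35.0 FPKM, Tmem216 at 28.3 and 30.3 FPKM and Tmem17 at 20.9 and 19.8 FPKM.

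Of the genes of ciliary signalling and membrane, 0 of 14 tested were called. Arl3, a GTPase that releases lipidated cargo into the cilium, was at 116 FPKM (female) and 115 FPKM (male), Rab8a at 77.1 and 77.2 FPKM and the locus joining Mlec and Unc119b at 61.0 and 65.7 FPKM. In the list of motile cilium assembly and structure, 17 of 32 genes with a row were tested and 0 called. Besides Zmynd10, the highest were Ccdc65 at 5.89 and 6.08 FPKM and Spag1 at 5.17 and 6.30 FPKM. Ccdc65 was listed with the same interval as Adcy6, which was at 49.5 FPKM (female) and 55.1 FPKM (male). The median level over the 32 genes of the motile cilium list was 0.402 FPKM, against 5.79 FPKM for the 27 transition zone genes. In the multiciliated programme, 0 of 9 tested genes were called, and its highest levels were those of genes that other cells also use, the tubulin Tubb4b at 130 and 152 FPKM and the centrin Cetn2 at 119 and 126 FPKM. Among further cystic kidney genes, 0 of 13 were called, with Prkcsh, a glucosidase subunit of polycystic liver disease, at 225 and 264 FPKM and Ganab at 66.3 and 64.4 FPKM.

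**Figure D4:**
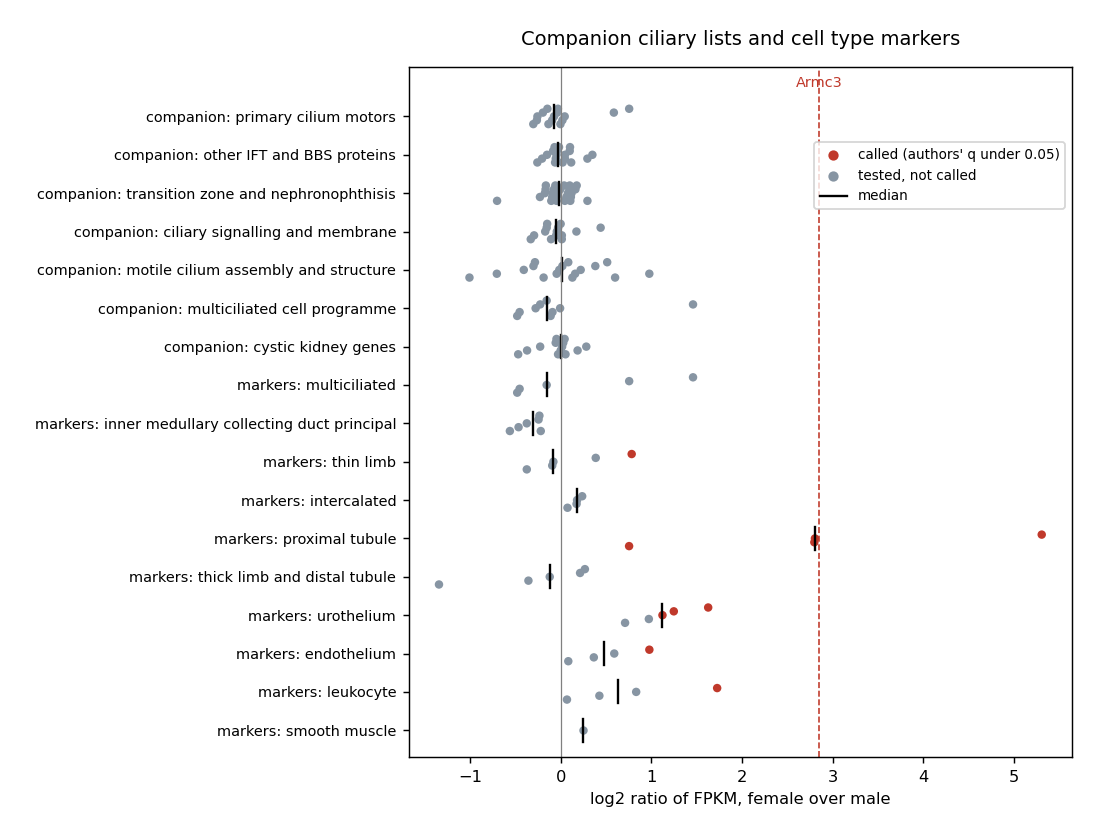
Log2 ratio of FPKM, female over male, for the tested genes of the companion ciliary lists and of the cell type marker lists, with called genes in red, others in grey and a bar at each list's median; the dashed line is Armc3 at 2.85. Ciliary medians lie between -0.16 and 0.02 with no called gene, while the proximal tubule markers have a median of 2.80 and the urothelial ones 1.12.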

How the data were processed

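Per the submitters' processing notes, the tools were TopHat2 2.1.1 and Cufflinks 2.2.1, besides StringTie, cutadapt and FastQC, and the build was rn5, with no role or order given; libraries came from a stranded total RNA kit per the labels' protocols, and use of strand in counting is not given in the sources used here. Per the file headers, both pools of a sex were joined in a gene comparison laid out like Cuffdiff output. Its values, 1 column per sex, were taken to be FPKM as the authors deposited them, since no header names the unit and the values are not whole. The p-value and q-value per locus are the authors' and were copied. The deposited log2 fold, handled as a score because some cells hold spreadsheet errors, is male over female; ratios here were recomputed from FPKM as female over male with no pseudocount, and the largest gap to the deposited ones was 4.19e-05. Depth was taken from the read counts per library that the authors deposited. No value per pool was used, so no test over pools could be run.

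Members were matched by symbol in any letter case; of several rows (1 member, Rsph4a) the one of highest FPKM sum was taken, and no member stood on a joined locus. Values are given for members called or of p under 0.05, for the 3 highest in each role, for Pkd1, Pkd2, Pkhd1 and Rfx3 and, where space allowed, for the others; in companion lists for those of p under 0.05 and the 3 highest (some named items and sequences are not reported here); defining cell type markers are given as values. Companion lists were matched by older symbols of the RefSeq gene table (assembly GRCr8) where only 1 gene bears them; 7 had no row. The members and lists were chosen with earlier results of these data known. Alternatives were pseudocounts of 1 and 0.1, q thresholds of 0.01 and 0.1, a filter at a mean of 1 FPKM with Benjamini-Hochberg readjustment (tested on simulated data), row choice and 3 scalings between the sexes. Python 3.11.15, numpy 2.4.6 and pandas 2.3.3 were used.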

Additional observations from a re-analysis of the deposited data

How the results depend on the processing

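Of 31 alternative values computed for the median ratio, the size of the sex difference, the count of called members and the ratios of Armc3, Rsph10b and Dnah2, 30 kept their direction and their side of the threshold, or, for a value with no test, moved by under 0.1 on the log2 scale. The exception was the count of called members at q under 0.1, which was 2 (Armc3 and Rsph10b) in place of 1, against 3.40% of all tested loci. Pseudocounts and scalings left the authors' q as copied. Under these, Armc3, Rsph10b and Dnah2 could therefore not change their side of the threshold, and only their ratios could move. The median log2 ratio of the tested members ranged from 0.0035 with a pseudocount of 1 to 0.0638 with scaling by the sum of FPKM. The log2 ratio of Armc3 ranged from 2.18 to 2.91. The median absolute log2 ratio of the tested members was 0.135 with no pseudocount and 0.0862 with a pseudocount of 1. A limit of 0.1 is wide beside medians of 0.0039 and 0.135, so staying within it says little about how steady these medians are. Filtering at a mean of 1 FPKM gave q = 0.00372 for Armc3, 0.0769 for Rsph10b and 0.378 for Dnah2 by Benjamini-Hochberg readjustment of the authors' p over 16984 loci, of which 2.47% were called. The choice of row and leaving out joined loci could change no value. No member stood on a joined locus, and Rsph4a, the 1 member with several rows, was at 0 on both. No paired analysis was possible because the table holds 1 value per sex, and for the same reason leaving out a pool was not run. An FPKM under 1 with no count behind it carries no interval, which limits the untested axonemal genes most.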

Other observations

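Another armadillo repeat gene, Armc2, chosen after its values were seen and not a member of the set, was at 0.724 FPKM (female) and 0.0802 FPKM (male), 9.02-fold apart, with p = 0.0081 and q = 0.180 in the authors' deposited table, so it was not called. The other 7 tested genes named Armc followed by a number, Armc1, Armc5, Armc6, Armc7, Armc8, Armc9 and Armc10, were at most 1.28-fold apart and none was called.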
